A study of Mus musculus with 20 samples.

Results

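The Ly6 and IFITM genes described here are Ly6a, Ly6c1, Ly6c2, Ly6e, Ly6i, Ifitm1, Ifitm2, Ifitm3 and Ifitm6, chosen by gene symbol as 9 of the 78409 genes listed in the deposited table. All 9 had a count in at least 1 library, as did 34373 genes in all. The data are RNA sequencing of bone marrow-derived macrophages (BMDMs), which are macrophages grown from bone marrow cells, here from female C57BL/6J mice with a wildtype genotype in every group. The cells were exposed to fractions of bronchoalveolar lavage fluid (BALF), the fluid washed out of the airways, from mice challenged with ovalbumin to give an allergic airway inflammation. Those donor mice either carried RNY1, the gene of a small noncoding Y RNA, on both alleles (RNY1+/+) or had it deleted on both (RNY1-/-), so the genotype is that of the fluid and not of the cells. The 5 groups of 4 libraries each were BMDMs given PBS as the control, RNY1+/+ EVFx, RNY1-/- EVFx, RNY1+/+ ProteinFx or RNY1-/- ProteinFx. EVFx is the fraction enriched in extracellular vesicles, added at 35000000 particles per µL, and ProteinFx the fraction enriched in protein, added at 0.75 µg per µL. These doses are in different units, so the kind of fraction and its dose cannot be told apart. All cells were treated on day 7 of culture, and the fractions had been stored for 5 days. The names of all libraries share 1 prefix, whose meaning is not stated. Whether replicate libraries stem from different cultures, mice or pools of fluid is not said in any label, so the p-values below measure the spread between libraries, which may be technical.

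The Ly6 genes encode small proteins of the Ly6/uPAR fold, most of which are held on the cell surface by a glycosylphosphatidylinositol (GPI) anchor, and several serve as markers of blood cell types. The IFITM genes encode interferon-induced transmembrane proteins that sit in the plasma membrane or in endosomes and restrict the entry of many enveloped viruses. Genes of both families are known targets of interferon, which acts through the JAK kinases and the STAT transcription factors. The interferon-stimulated response element (ISRE) and the gamma-activated sequence (GAS) are DNA motifs found in promoters of interferon targets.

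Both families lie in clusters. In a GENCODE annotation of GRCm38, which is an earlier build than the GRCm39 named in the submitters' processing notes, the 5 Ly6 genes lie within 156.92 kb of chromosome 15, from 74955051 to 75111970. Ly6e (ENSMUSG00000022587) is on the plus strand at one end of this stretch, from 74955051 to 74959905, and Ly6i, Ly6a, Ly6c1 and Ly6c2 follow on the minus strand. Ly6a (ENSMUSG00000075602) runs from 74994877 to 74998031. The 4 Ifitm genes lie within 63.088 kb of chromosome 7, from 140954837 to 141017924. Ifitm2 (ENSMUSG00000060591) runs from 140954837 to 140955987 and Ifitm3 (ENSMUSG00000025492) from 141009586 to 141010770, both on the minus strand. Ifitm1 lies between them on the plus strand, and Ifitm6 is beyond Ifitm3 on the minus strand. All 9 are annotated as protein-coding.

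Promoter sequences are shown for the members that held a motif of the interferon pathway, since these are the sites through which the STAT factors are known to act. The windows come from RefSeq on GRCm38.p6 and are 30 bases long, read 5′ to 3′ on the strand of the gene, with the matched motif in capitals. Each promoter searched was 300 bases long, mostly before the start of transcription, and 6 of the 9 members had one (Ifitm1, Ifitm2, Ifitm3, Ifitm6, Ly6c1 and Ly6c2).
Ifitm2 ISRE core, chr7:140955988-140956017: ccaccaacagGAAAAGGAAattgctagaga
Ifitm3 ISRE core, chr7:141010723-141010752: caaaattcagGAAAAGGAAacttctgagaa
Ifitm6 GAS, chr7:141016883-141016912: ccatatgaacTTCCTTGAAacaagagcttc
The ISRE core was searched as GAAANNGAA on both strands and was found in 8.56% of the 32851 mouse promoters in the same table. Ifitm2 held 1 match, which began 46 bases before the start of transcription. Ifitm3 held 2 matches, which began at bases 3 and 20 counted from the start site as base 1. The match of Ifitm2 and the earlier match of Ifitm3 have the same letters. GAS was searched as TTCNNNGAA, which reads the same on both strands, and was found in 8.298% of all promoters. Ifitm6 held it 10 bases before its RefSeq start. That window lies inside the GENCODE span of Ifitm6, from 141015699 to 141017924 on the minus strand, so the annotations differ in its start. Ifitm3 held the GAS motif at base 14, where it overlaps the later of its ISRE cores. A part of the NF-kB site, GGGANTTTC, was found in 1.11% of promoters and in none of the 6 members. Ifitm1, Ly6c1 and Ly6c2 held none of the 3 motifs in this window.

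Total counts ranged from 2510005 to 8277366 per library, after removal of PCR duplicates by molecular identifiers. A gene at or under 3 counts in a library was taken as not measurable, which is 0.362 to 1.195 CPM (counts scaled to the library's total) depending on the library. PBS library 3 stood apart over all genes. Its mean squared differences from the other PBS libraries were 19.02 to 40.7 times those of counting error, against 2.52 to 12.1 among the others. By the same ratio of squared differences, the 4 RNY1-/- ProteinFx libraries fell into pairs. The ratio was 3.91 between libraries 1 and 2, 2.55 between 3 and 4, and 14.4 to 17.4 across the pairs. The macrophage markers Csf1r, Adgre1, Cd68, Lyz2, Mertk, Fcgr1 and Itgam were over 3 counts in every library and summed to 8450 to 12848 CPM. The BMDMs carry RNY1 by their labels, and Rny1 itself had at most 1.5 counts in a library, so it checks neither genotype nor treatment.

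Ly6a, Ly6e, Ifitm2 and Ifitm3 had over 3 counts in every library, and these 4 of the 9 members passed the filter on low values in every comparison. Ly6a was under 3 CPM in most PBS libraries and passed through its level in the treated groups. Ly6c1, Ly6c2, Ly6i, Ifitm1 and Ifitm6 did not pass and are described by their counts. Differentially expressed genes (DEGs) were called by edgeR's quasi-likelihood test at a Benjamini-Hochberg adjusted p under 0.05 over all genes tested and an absolute log2 fold change above 1. Fold changes are differences between groups on the log2 scale after TMM scaling. The 4 comparisons with PBS share the same 4 control libraries. In bulk RNA, fewer cells of a type and less RNA per cell cannot be told apart.

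**Figure D1:**
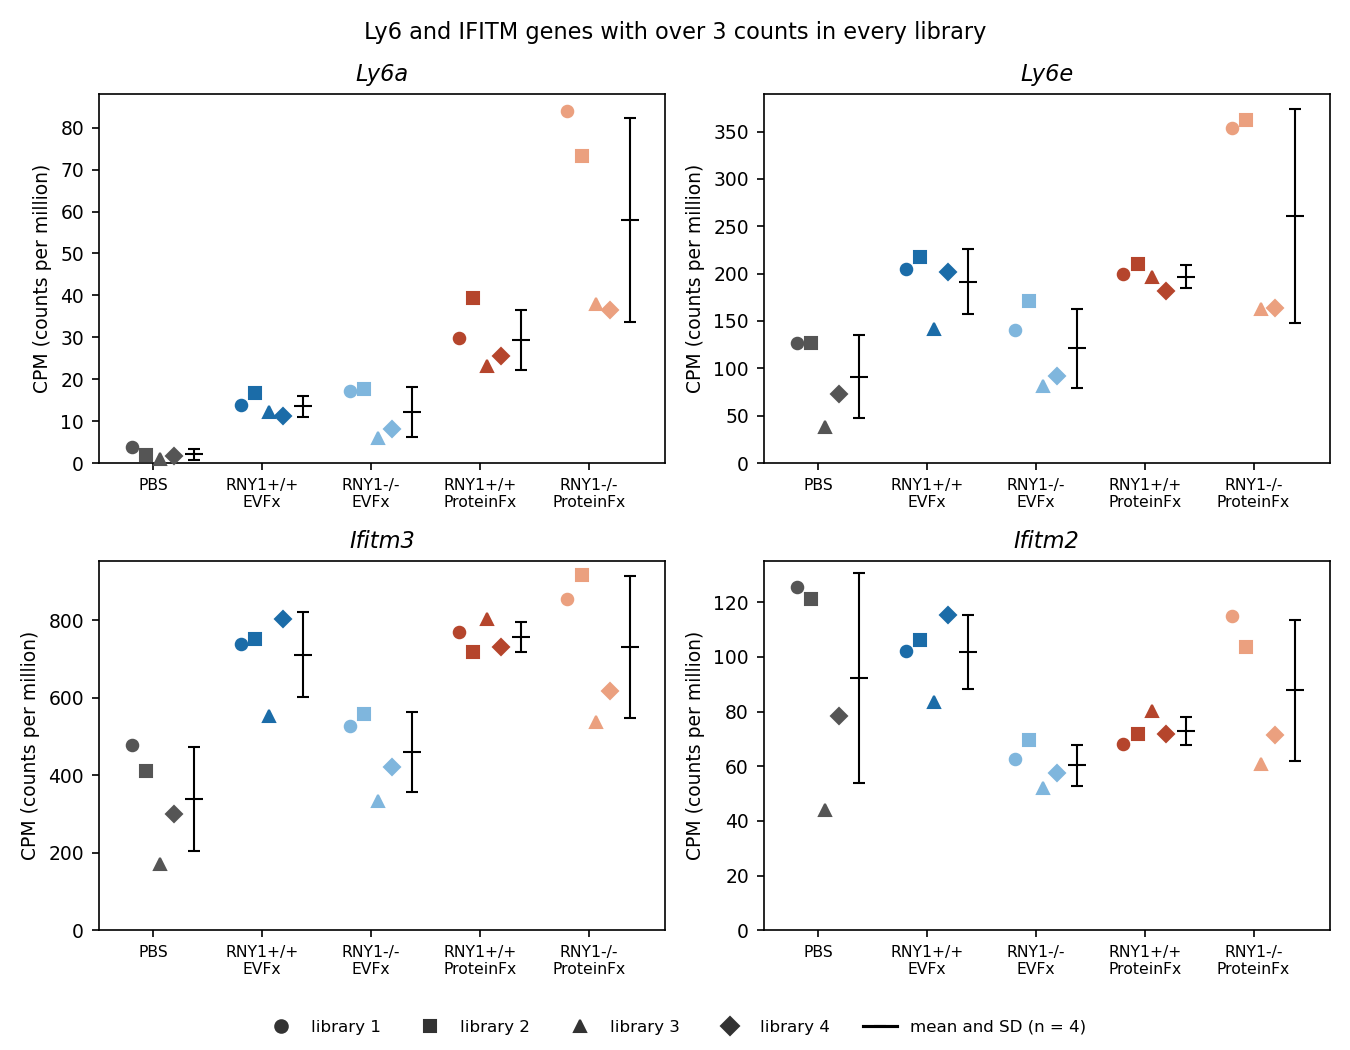
CPM (vertical axes, linear and starting at 0) of Ly6a, Ly6e, Ifitm3 and Ifitm2 in the 5 treatment groups, with 1 symbol per library and the mean and SD (n = 4) at the right of each group. Ly6a was higher in all 16 treated libraries than in any PBS library, and RNY1-/- ProteinFx libraries 1 and 2 were above libraries 3 and 4 for each of the 4 genes.

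Ly6a, which encodes the stem cell antigen Sca-1, had the largest fold change of the 4 members tested. In PBS its level was 3.89, 2.01, 0.915 and 1.60 CPM in libraries 1 to 4, and in RNY1+/+ EVFx it was 13.8, 16.8, 12.2 and 11.2 CPM. In RNY1-/- EVFx it was 17.1, 17.6, 5.91 and 8.03 CPM. Every EVFx library was thus above every PBS library, while the EVFx groups overlapped each other. In RNY1+/+ ProteinFx Ly6a was at 29.9, 39.3, 23.1 and 25.5 CPM, and in RNY1-/- ProteinFx at 84.0, 73.3, 37.8 and 36.6 CPM. Every ProteinFx library was above every EVFx library, and within ProteinFx the genotypes overlapped through RNY1+/+ library 2. The order of the means was PBS (2.105 ± 1.28, SD, n = 4), RNY1-/- EVFx (12.1 ± 6.04), RNY1+/+ EVFx (13.5 ± 2.43), RNY1+/+ ProteinFx (29.4 ± 7.13) and RNY1-/- ProteinFx (57.9 ± 24.3).

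Ly6a was higher than PBS in all 4 treatments. It passed the filter on low values through its level in the treated groups, so it had to differ. The p-values below therefore add no separate support for the rise. Its log2 fold change was 2.85 with RNY1+/+ EVFx (standard error 0.30, adjusted p = 2.0e-05), or 7.20-fold. With RNY1-/- EVFx it was 2.78 (standard error 0.43, adjusted p = 0.00028). With RNY1+/+ ProteinFx it was 3.95 (standard error 0.31, adjusted p = 1.2e-06), or 15.5-fold. With RNY1-/- ProteinFx it was 4.83 (standard error 0.39, adjusted p = 9.3e-06), or 28.5-fold. Every one of these calls stood when any 1 library was left out, and without PBS library 3 the values were 2.65, 2.61, 3.74 and 4.63 in the same order.

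Between fractions, Ly6a was higher with ProteinFx than with EVFx in both genotypes, by 1.11 on the log2 scale for RNY1+/+ (standard error 0.16, adjusted p = 3.7e-05) and 2.06 for RNY1-/- (standard error 0.32, adjusted p = 0.00041). Without RNY1+/+ ProteinFx library 2 the RNY1+/+ value was 0.96 and under the fold limit of 1. Between genotypes, Ly6a was 0.91 higher with RNY1-/- than with RNY1+/+ ProteinFx (standard error 0.24, adjusted p = 0.048), which is under the fold limit. This value depended on single libraries. It passed both limits without RNY1+/+ library 2 (1.06) or without RNY1-/- library 3 (1.04) or 4 (1.06), and its adjusted p was 0.11 to 0.18 without any 1 of the others. RNY1-/- ProteinFx libraries 1 and 2 alone gave 1.29 (adjusted p = 0.00014), and libraries 3 and 4 alone gave 0.31 (adjusted p = 0.33). In EVFx the genotype difference of Ly6a was -0.03 (95% interval -0.59 to 0.53, adjusted p = 0.94).

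Markers of other cells that can express Ly6 genes were also measured. The monocyte markers are not reported in full here, so whether they moved with Ly6a is not described. The 4 endothelial markers summed to 5.34 to 8.96 CPM in PBS and to 7.39 to 21.0 CPM over the treated libraries, and most of this was Kdr, with Tek at 0 in 19 libraries and Pecam1 and Cdh5 at no more than 3.02 CPM. The progenitor markers Kit and Cd34 summed to at most 0.915 CPM, with Cd34 at 0 in 19 libraries. The part of other cells in the change of Ly6a was not tested.

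Ly6e, a GPI-anchored protein known to restrict the entry of coronaviruses, was at 127, 127, 37.97 and 72.4 CPM in the 4 PBS libraries. In RNY1+/+ EVFx it was at 205, 218, 141 and 201 CPM, above every PBS library, and in RNY1-/- EVFx at 140, 171, 81.0 and 91.9 CPM, overlapping PBS. In RNY1+/+ ProteinFx it was at 200, 210, 196 and 182 CPM. The 4 RNY1-/- ProteinFx libraries split into 354 and 363 CPM in libraries 1 and 2 and 163 and 164 CPM in libraries 3 and 4, which lie on either side of all RNY1+/+ ProteinFx values. The means rose from PBS (91.1 ± 43.8) through RNY1-/- EVFx (121 ± 42.1), RNY1+/+ EVFx (191 ± 34.1) and RNY1+/+ ProteinFx (197 ± 11.8) to RNY1-/- ProteinFx (261 ± 113), and each neighbouring pair in this order overlapped.

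Against PBS, Ly6e rose by 1.25 on the log2 scale with RNY1+/+ EVFx (standard error 0.31, adjusted p = 0.0076), by 1.27 with RNY1+/+ ProteinFx (standard error 0.29, adjusted p = 0.0035) and by 1.57 with RNY1-/- ProteinFx (standard error 0.39, adjusted p = 0.012). With RNY1-/- EVFx the value was 0.65 (95% interval -0.11 to 1.396, adjusted p = 0.13). In that comparison the deviations of same-numbered libraries correlated weakly (0.13 to 0.38), and no label says what the numbers share. With the replicate number as a block Ly6e was at 0.72 (adjusted p = 0.0016), still under the fold limit. Without PBS library 3, the lowest of all, Ly6e was at 0.99 with RNY1+/+ EVFx and no longer called. With RNY1-/- ProteinFx libraries 3 and 4 alone it was at 0.97 against PBS (adjusted p = 0.082).

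Ly6c2, which encodes the Ly6C antigen of inflammatory monocytes, had 2.5 to 11 counts per PBS library and 19 to 27 in RNY1+/+ EVFx, without overlap. It had 8 to 21.5 counts in RNY1-/- EVFx, 4.5 to 16.5 in RNY1+/+ ProteinFx and 3 to 28.5 in RNY1-/- ProteinFx. In CPM, the means were 1.22 ± 0.527 in PBS, 3.36 ± 0.910 in RNY1+/+ EVFx, 2.15 ± 0.455 in RNY1-/- EVFx, 2.47 ± 0.891 in RNY1+/+ ProteinFx and 2.68 ± 1.88 in RNY1-/- ProteinFx. Both EVFx groups were above all PBS libraries, and both ProteinFx groups overlapped PBS. With the weaker filter of filterByExpr alone, Ly6c2 was tested against PBS with EVFx but not with ProteinFx. Its log2 fold change was 1.52 for RNY1+/+ EVFx (adjusted p = 0.0023) and 1.00 for RNY1-/- EVFx (adjusted p = 0.021). It passed that filter through its level in the EVFx groups, so these p-values add no separate support for a rise.

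Ly6c1, its close paralogue, had at most 1.5 counts in any library and 9 over all 20, so it was not measurable in any group. A ratio of Ly6c1 to Ly6c2 was therefore not computed. Ly6c1 shares 36.7% of its 50-base stretches with other annotated genes and Ly6c2 13.3%, and reads that map to several places were shared out between genes, so a read of one may count for the other. In the last part of the transcript, at the sequenced 3′ end, these shares were 23.4% for Ly6c1 and 24.2% for Ly6c2. Ly6i had 0 counts in every PBS library. It had 5, 9, 3 and 5 counts in RNY1+/+ EVFx, 6, 4.5, 2 and 2 in RNY1-/- EVFx, and 4, 4, 0 and 11 in RNY1+/+ ProteinFx. In RNY1-/- ProteinFx it was at or under 3 counts in every library. The RNY1+/+ EVFx mean of Ly6i was 1.30 times the level that 3 counts in each PBS library would give (0.575 CPM). That mean leans on library 2 (1.13 CPM), with the others at 0.601 to 0.646 CPM and library 3 at 3 counts, so it gives no firm bound. No ratio is given for the other treatments, since RNY1+/+ ProteinFx library 4 held most of the counts of its group and the others were at or near the level of 3 counts.

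**Figure D2:**
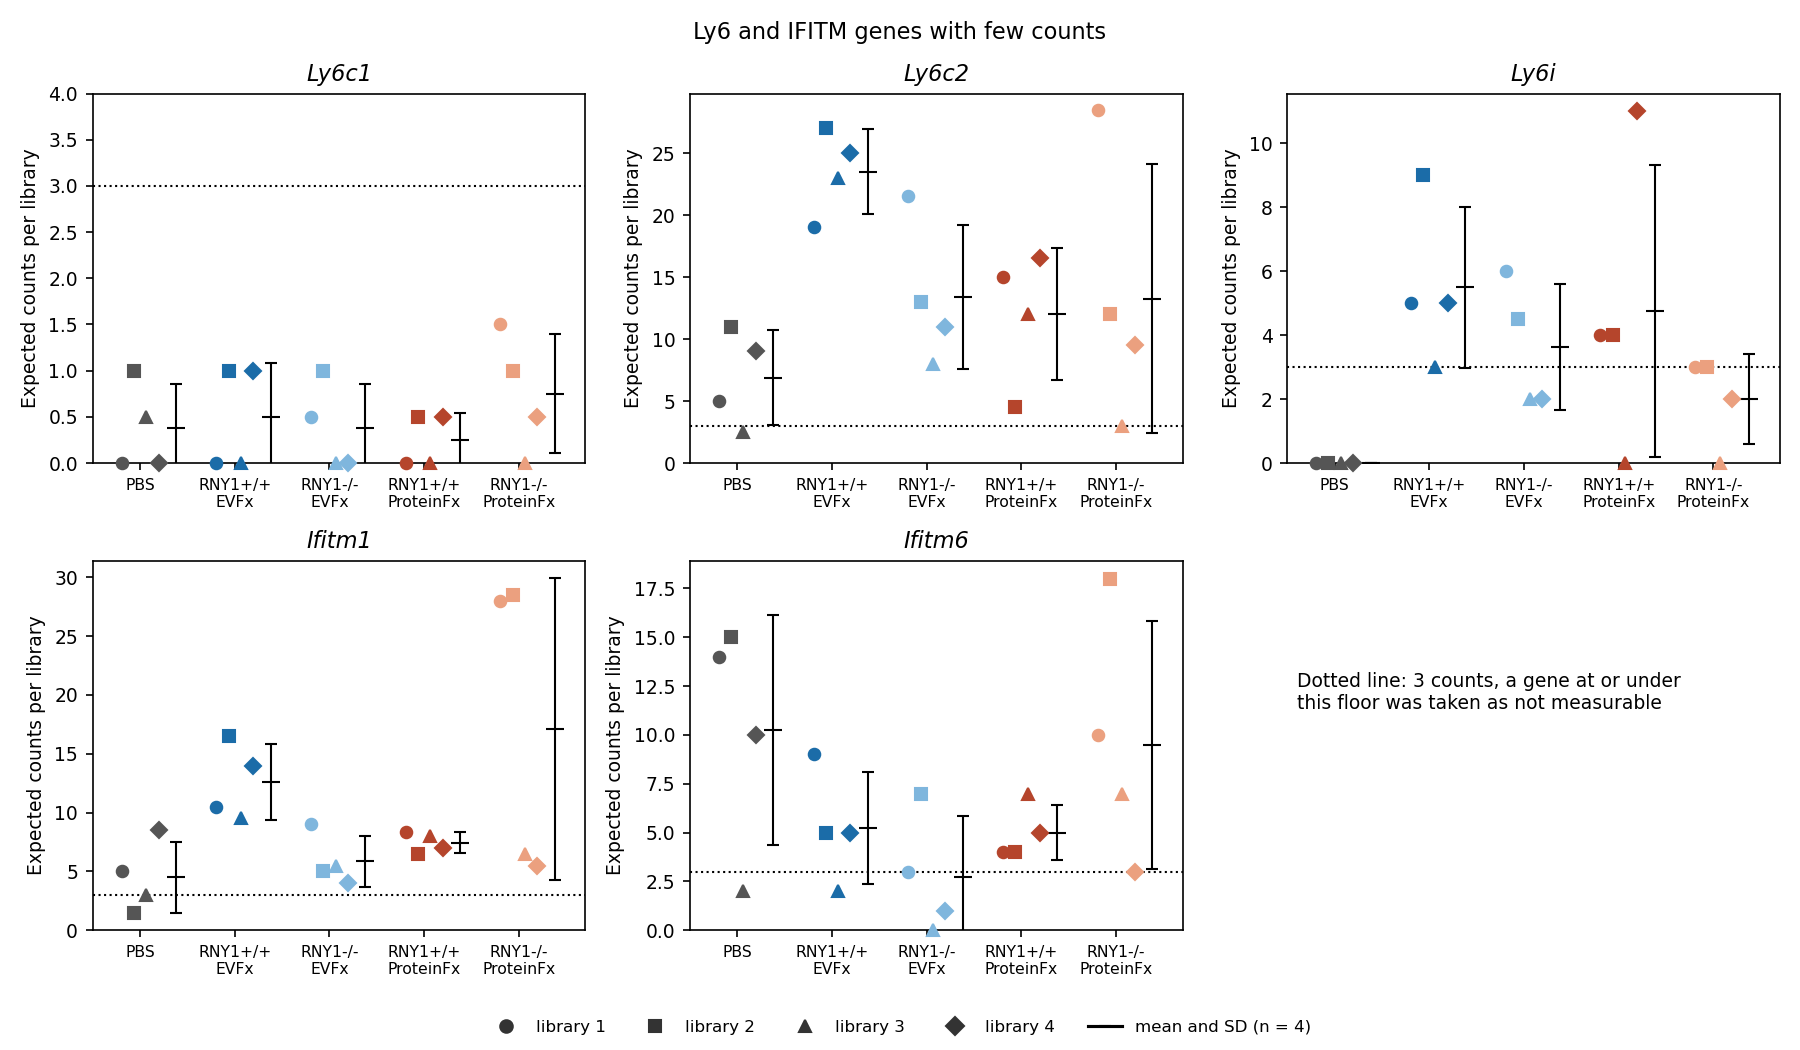
Expected counts per library (vertical axes, linear) of Ly6c1, Ly6c2, Ly6i, Ifitm1 and Ifitm6, with 1 symbol per library, the mean and SD (n = 4) at the right of each group and a dotted line at 3 counts. Ly6c1 stayed at or under 1.5 counts throughout, Ly6i was at 0 in all PBS libraries, and Ifitm1 reached 28 and 28.5 counts in RNY1-/- ProteinFx libraries 1 and 2.

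Ifitm3, an endosomal protein that restricts influenza virus, was at 477, 411, 171 and 299 CPM in the PBS libraries. It was at 739, 750, 552 and 802 CPM in RNY1+/+ EVFx and at 526, 559, 332 and 420 CPM in RNY1-/- EVFx. Only the RNY1+/+ EVFx libraries were all above PBS. In RNY1+/+ ProteinFx it was at 770, 717, 803 and 732 CPM and in RNY1-/- ProteinFx at 854, 916, 538 and 616 CPM, again all above PBS. The means were 339 ± 134 in PBS, 459 ± 103 in RNY1-/- EVFx, 711 ± 109 in RNY1+/+ EVFx, 731 ± 182 in RNY1-/- ProteinFx and 756 ± 38.8 in RNY1+/+ ProteinFx, with overlap between each neighbouring pair in this order.

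Ifitm3 rose against PBS by 1.24 on the log2 scale with RNY1+/+ EVFx (standard error 0.26, adjusted p = 0.0027), by 1.32 with RNY1+/+ ProteinFx (standard error 0.25, adjusted p = 0.00097) and by 1.16 with RNY1-/- ProteinFx (standard error 0.29, adjusted p = 0.011). With RNY1-/- EVFx it was at 0.67 (95% interval 0.08 to 1.27, adjusted p = 0.052), and with the replicate block at 0.74 (adjusted p = 0.00070). The RNY1-/- ProteinFx call was lost without PBS library 3 (0.94) and with libraries 3 and 4 alone (0.89, adjusted p = 0.061).

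Ifitm2, which encodes a close relative of Ifitm3 that is also found in endosomes, did not pass the test against PBS with any treatment. It was at 125, 121, 43.9 and 78.6 CPM in PBS and at 102, 106, 83.5 and 115 CPM in RNY1+/+ EVFx. In RNY1-/- EVFx it was at 62.5, 69.6, 52.0 and 57.5 CPM. In RNY1+/+ ProteinFx it was at 68.1, 71.9, 80.1 and 71.8 CPM and in RNY1-/- ProteinFx at 115, 104, 60.9 and 71.5 CPM. The PBS libraries spanned the whole range of the treated ones. The log2 fold changes against PBS were 0.32 (95% interval -0.27 to 0.90), -0.37 (-0.95 to 0.21), -0.17 (-0.74 to 0.39) and -0.01 (-0.69 to 0.67) in the order RNY1+/+ EVFx, RNY1-/- EVFx, RNY1+/+ ProteinFx and RNY1-/- ProteinFx, with adjusted p values of 0.36, 0.25, 0.59 and 0.98. These intervals admit changes up to nearly 1 in size, which is close to the fold limit. The sign of Ifitm2 depended on the processing. Without PBS library 3 it was lower than PBS by adjusted p with RNY1-/- EVFx (-0.58, adjusted p = 0.0027) and RNY1+/+ ProteinFx (-0.40, adjusted p = 0.015). With length and GC trends removed it was higher by adjusted p with RNY1+/+ EVFx (0.53, adjusted p = 0.013), RNY1+/+ ProteinFx (0.43, adjusted p = 0.042) and RNY1-/- ProteinFx (0.55, adjusted p = 0.034).

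The ratio of Ifitm2 to Ifitm3 within each library sets the paralogues against each other where both share the spread between libraries. The ratio of their CPM, with 0.5 added to each, was 0.264, 0.296, 0.259 and 0.264 in the PBS libraries. It was 0.139, 0.142, 0.152 and 0.144 in RNY1+/+ EVFx and 0.120, 0.125, 0.158 and 0.138 in RNY1-/- EVFx. It was 0.0891, 0.101, 0.1003 and 0.0987 in RNY1+/+ ProteinFx and 0.135, 0.114, 0.114 and 0.117 in RNY1-/- ProteinFx. All 16 treated libraries were below all PBS libraries, PBS library 3 included. The mean log2 ratio fell by 0.91 (standard error 0.05) with RNY1+/+ EVFx, by 1.01 (0.10) with RNY1-/- EVFx, by 1.48 (0.06) with RNY1+/+ ProteinFx and by 1.18 (0.07) with RNY1-/- ProteinFx. Each had p = 0.029 in an exact two-sided permutation test, the smallest that 4 against 4 libraries allow, and 0.034 after adjustment over the 6 comparisons made.

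Between genotypes the ratio was 0.30 higher on the log2 scale with RNY1-/- than with RNY1+/+ ProteinFx (standard error 0.07, exact p = 0.029, adjusted 0.034). All 4 RNY1-/- libraries were above all 4 RNY1+/+ libraries, and each pair alone gave a difference of 0.35 (libraries 1 and 2) or 0.25 (libraries 3 and 4). With EVFx the genotypes differed by -0.10 (standard error 0.09, exact p = 0.31). The ratio rests on the assignment of reads: Ifitm2 shares 48.5% of its 50-base stretches with other annotated genes and had fractional counts in 18 of 20 libraries, while Ifitm3 shares 10.02% and had them in 9. In the last part of the transcript, at the sequenced 3′ end, the shared stretches made up 25.4% for Ifitm2 and 12.3% for Ifitm3. The genes that share them with Ifitm2 are Gm45717, Gm11951 and Gm8865, and Ifitm3 shares some with Ifitm2 itself. The part of shared reads in the ratio was not tested.

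**Figure D3:**
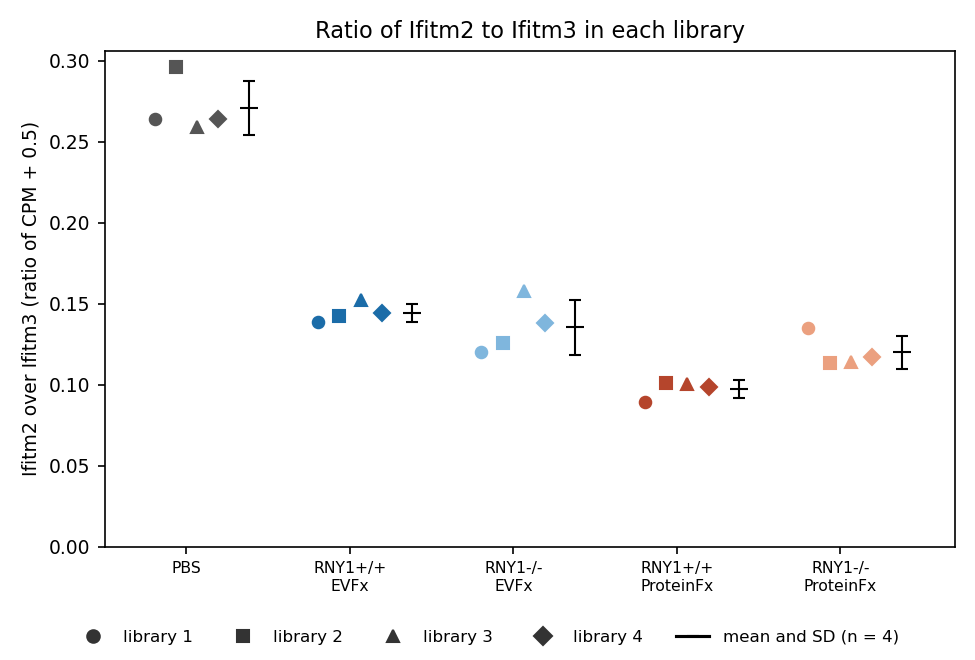
Ratio of Ifitm2 to Ifitm3 (vertical axis, CPM of each gene with 0.5 added, linear and starting at 0) in the 5 treatment groups, with 1 symbol per library and the mean and SD (n = 4). The PBS libraries sit between 0.259 and 0.296, and the 16 treated libraries between 0.0891 and 0.158.

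Ifitm1, which acts mainly at the plasma membrane, had 1.5 to 8.5 counts per library in PBS, 9.5 to 16.5 in RNY1+/+ EVFx, 4 to 9 in RNY1-/- EVFx and 6.5 to 8.33 in RNY1+/+ ProteinFx. In RNY1-/- ProteinFx it had 28 and 28.5 counts in libraries 1 and 2 and 6.5 and 5.5 in the shallower libraries 3 and 4, or 5.29, 3.99, 2.59 and 1.43 CPM. The mean CPM was 0.864 ± 0.541 in PBS, 1.75 ± 0.305 in RNY1+/+ EVFx, 0.989 ± 0.332 in RNY1-/- EVFx, 1.62 ± 0.326 in RNY1+/+ ProteinFx and 3.32 ± 1.68 in RNY1-/- ProteinFx. Within EVFx the genotypes did not overlap, with RNY1+/+ the higher, and RNY1-/- ProteinFx was above RNY1-/- EVFx in all libraries. With filterByExpr alone the genotype effect of Ifitm1 differed between the fractions by 1.85 on the log2 scale (standard error 0.48, adjusted p = 0.011). Ifitm1 passed that filter through the groups where it was higher, so this p-value adds no separate support. The value includes the split of the RNY1-/- ProteinFx libraries, and Ifitm1 had fractional counts in 11 of 20 libraries.

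Ifitm6, a family member known from myeloid cells, had both EVFx means below that of PBS. It had 14, 15, 2 and 10 counts in PBS, 9, 5, 2 and 5 in RNY1+/+ EVFx and 3, 7, 0 and 1 in RNY1-/- EVFx. In RNY1+/+ ProteinFx it had 4, 4, 7 and 5 counts and in RNY1-/- ProteinFx 10, 18, 7 and 3. All groups overlapped, with means of 1.86 ± 1.03 CPM in PBS, 0.698 ± 0.326 in RNY1+/+ EVFx, 0.401 ± 0.457 in RNY1-/- EVFx, 1.10 ± 0.450 in RNY1+/+ ProteinFx and 1.99 ± 0.894 in RNY1-/- ProteinFx. With no filter on low values Ifitm6 was called lower than PBS with RNY1+/+ EVFx (-1.14, adjusted p = 0.041) and RNY1-/- EVFx (-1.81, adjusted p = 0.0021), on these few counts. Adjusted p values shrank in that fit at similar fold changes, as for Ly6e with RNY1+/+ EVFx (4.9e-12, against 0.0076 with the filter). The calls of Ifitm6 are therefore given as values only.

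Counted over the tested members, 3 of 4 were DEGs higher with RNY1+/+ EVFx than with PBS (Ly6a, Ly6e and Ifitm3), where 8.24% of all genes tested were. With RNY1-/- EVFx 1 of 4 was (Ly6a), against 9.02% of all genes. With RNY1+/+ ProteinFx 3 of 4 were (Ly6a, Ly6e and Ifitm3), against 8.96%, and with RNY1-/- ProteinFx the same 3 genes were, against 6.32%. No member was a DEG lower than PBS. Ly6a entered these tests through its level in the treated groups, so it had to differ, and the count with RNY1-/- EVFx rests on it alone. Nothing about the families is read from these counts. Whether the EVFx genotypes differ in their effect on a member is answered by the direct comparison of genotypes and not by these counts.

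**Figure D4:**
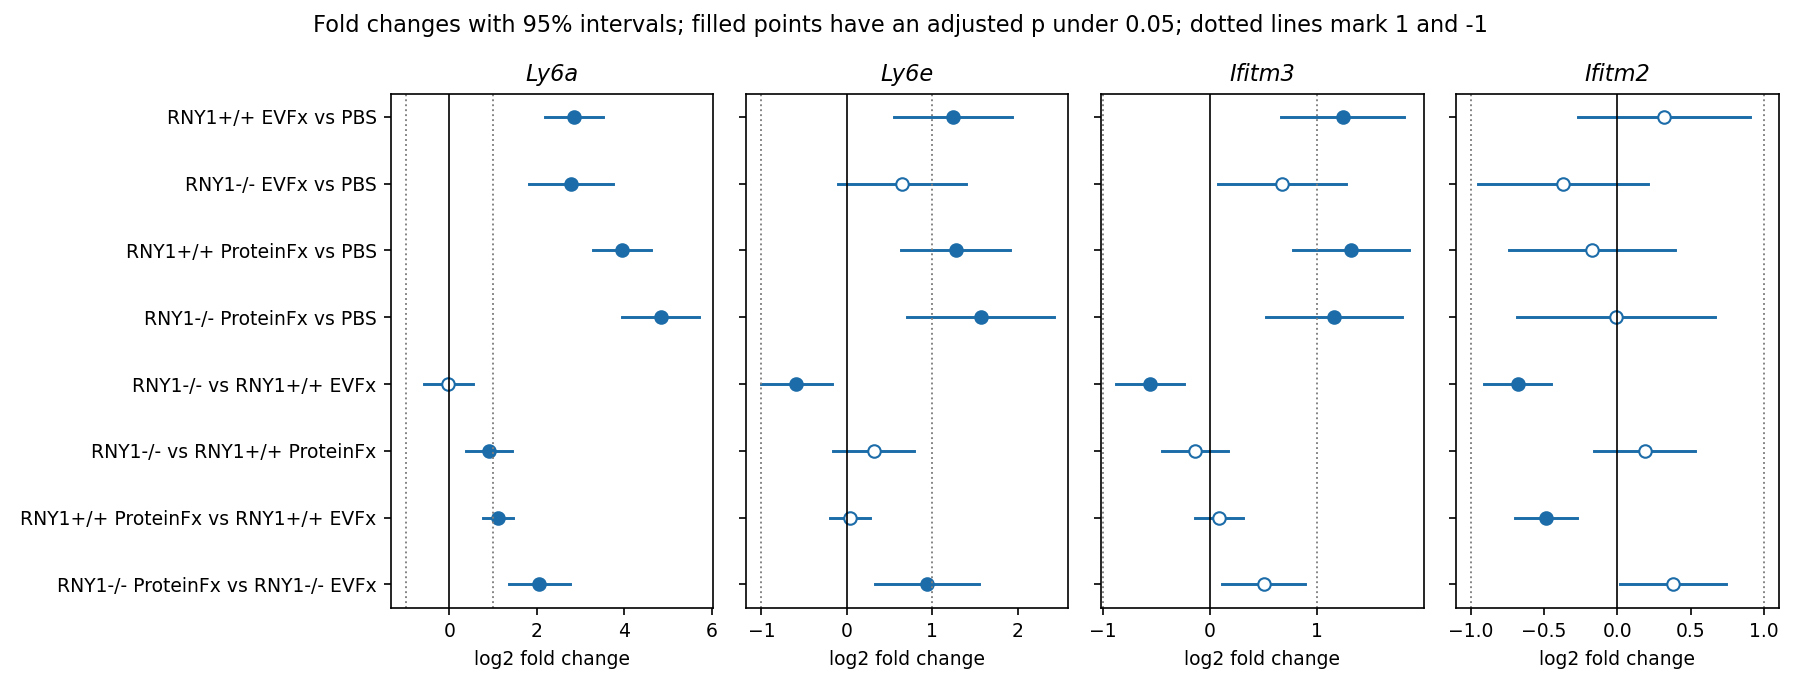
Log2 fold changes (horizontal axes, scaled separately for each gene) of Ly6a, Ly6e, Ifitm3 and Ifitm2 in the 8 comparisons of groups, with 95% intervals. Filled points have an adjusted p under 0.05, and dotted lines mark the fold limit of 1 in either direction. The fold changes of Ly6a lay above 2 against PBS throughout, while the 4 intervals of Ifitm2 against PBS all included 0.

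In the comparison of RNY1-/- with RNY1+/+ EVFx, Ly6e, Ifitm3 and Ifitm2 were lower with RNY1-/-, by less than the fold limit. The log2 fold changes were -0.59 for Ly6e (standard error 0.19, adjusted p = 0.022), -0.56 for Ifitm3 (standard error 0.15, adjusted p = 0.0069) and -0.68 for Ifitm2 (standard error 0.11, adjusted p = 0.00037). The adjusted p of Ly6e was above 0.05 without RNY1+/+ library 2 (-0.53, adjusted p = 0.058) or RNY1-/- library 4 (-0.50, adjusted p = 0.066). Ifitm2 ran from 52.0 to 69.6 CPM in RNY1-/- and from 83.5 to 115 CPM in RNY1+/+. The share of all genes with separate ranges was not counted. By adjusted p alone 3 of 4 members passed, but so did 52.1% of all genes, and by the DEG rule 0 of 4 members passed against 2.33% of all genes, with DESeq2 also calling 0 and the same 3 members having an unadjusted p under 0.05. With DESeq2 the adjusted p of Ly6e was 0.055, and with all 20 libraries in the fit it was 0.12 for Ly6e, 0.056 for Ifitm3 and 0.026 for Ifitm2. The count of members was thus near the background.

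The GC content of the members went along with this genotype difference. The level of a gene relative to its mean over the 20 libraries followed its GC content with a rank correlation across genes of 0.26 to 0.51 in the RNY1+/+ EVFx libraries and of -0.41 to -0.20 in the RNY1-/- EVFx libraries. Ly6e lies at percentile 84.1 of GC content among the genes tested, Ifitm2 at 79.7, Ifitm3 at 66.9 and Ly6a, which did not pass by adjusted p, at 46.9. After the trends with GC content and transcript length were removed from each library, the genotype difference in EVFx was -0.18 for Ly6e (adjusted p = 0.43), -0.36 for Ifitm3 (adjusted p = 0.080) and -0.34 for Ifitm2 (adjusted p = 0.015). The same removal raised Ly6e to 1.07 (adjusted p = 0.0020) and Ifitm3 to 1.08 (adjusted p = 0.0012) for RNY1-/- EVFx against PBS, past the fold limit. With RNY1+/+ EVFx against PBS Ly6e was then at 1.25 and Ifitm3 at 1.44. With RNY1+/+ ProteinFx against PBS they were at 1.72 and 1.75, and with RNY1-/- ProteinFx at 1.96 and 1.55. The GC trend and the donor genotype cannot be told apart in EVFx, since every library of one genotype lay on the other side of 0 from those of the other. Nor can the GC trend and the kind of fraction for RNY1+/+ fluid, where the correlations were -0.41 to -0.21 with ProteinFx. In PBS they were 0.51, 0.53, -0.17 and 0.34 in libraries 1 to 4.

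**Figure D5:**
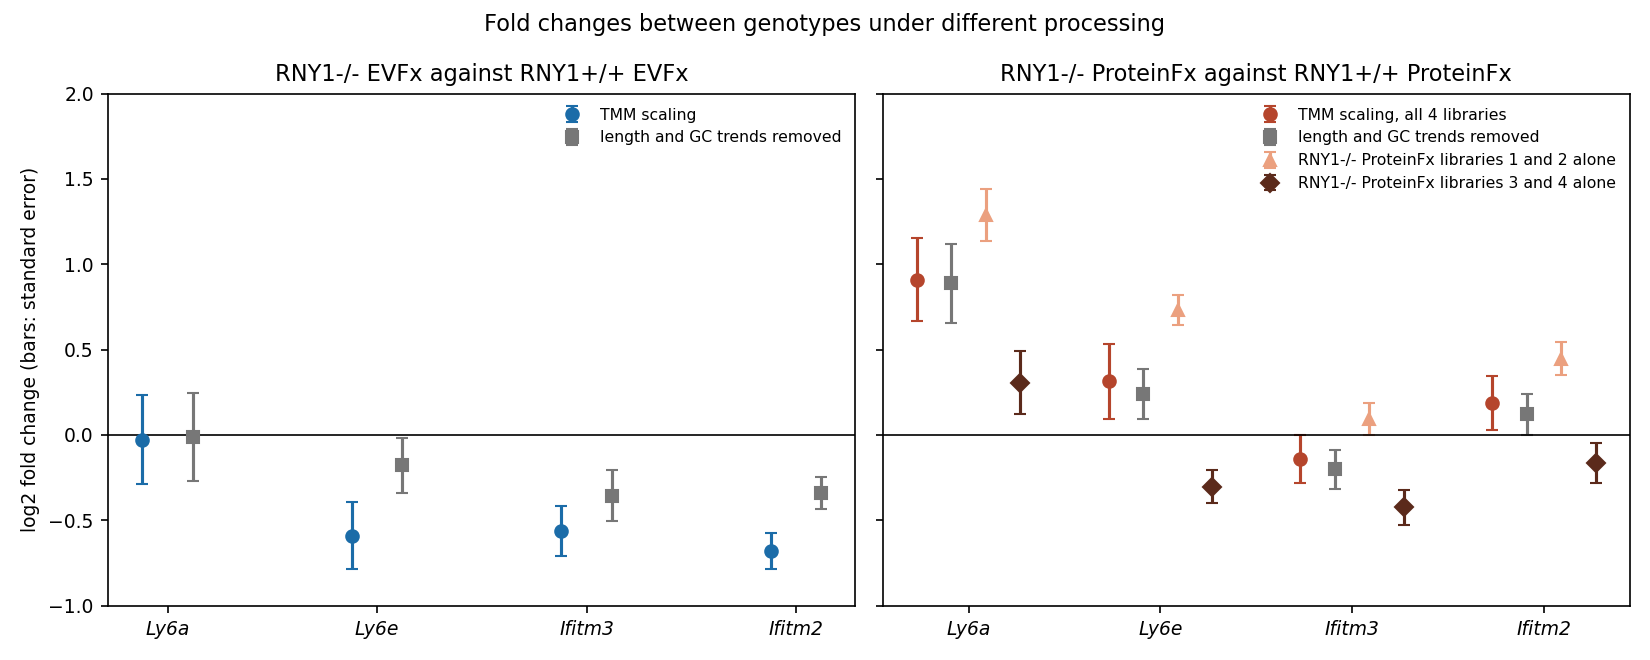
Log2 fold changes of RNY1-/- against RNY1+/+ (vertical axes, bars are standard errors) for Ly6a, Ly6e, Ifitm3 and Ifitm2 with EVFx (left) and ProteinFx (right). With EVFx, Ly6e moved from -0.59 to -0.18 when length and GC trends were removed. With ProteinFx, Ly6a was at 1.29 with RNY1-/- libraries 1 and 2 alone and at 0.31 with libraries 3 and 4 alone.

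In the comparison of RNY1-/- with RNY1+/+ ProteinFx, 1 of 4 members passed by adjusted p (Ly6a, at 0.91), against 5.54% of all genes. None was a DEG by edgeR, 0 of 4 against 1.82% of all genes, and none by DESeq2, and Ly6a was also the only one with an unadjusted p under 0.05. With all 20 libraries in the fit its adjusted p was 0.0504. Ly6e was at 0.31 (95% interval -0.16 to 0.79), Ifitm3 at -0.14 (-0.45 to 0.17) and Ifitm2 at 0.19 (-0.16 to 0.53). The pairs of RNY1-/- libraries gave opposite signs for Ly6e, 0.73 with libraries 1 and 2 (adjusted p = 0.00015) and -0.30 with libraries 3 and 4 (adjusted p = 0.068). Ifitm2 was at 0.45 with libraries 1 and 2 (adjusted p = 0.0055) and -0.16 with libraries 3 and 4 (adjusted p = 0.43), and Ifitm3 was at 0.093 (adjusted p = 0.49) and -0.42 (adjusted p = 0.026). The GC correlations of these libraries were 0.06 and 0.10 in libraries 1 and 2 and -0.52 and -0.48 in libraries 3 and 4. Their total counts were 5293171 and 7149366 in the first pair and 2510005 and 3855450 in the second. After removal of length and GC trends, Ly6a was at 0.89 (adjusted p = 0.027) over all 4 libraries. The part of GC content and depth in the split of the pairs was not tested.

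Between ProteinFx and EVFx of RNY1+/+ fluid, 1 of 4 members was a DEG (Ly6a), against 13.4% of all genes. By adjusted p 2 of 4 passed (Ly6a and Ifitm2), but so did 63.2% of all genes. Ifitm2 was lower with ProteinFx by less than the fold limit, at -0.49 (standard error 0.10, adjusted p = 0.00059), with no overlap of the groups. How many of all genes had separate ranges here was not counted. With all 20 libraries in the fit the adjusted p of Ifitm2 was 0.066. Ly6e was at 0.04 (95% interval -0.20 to 0.27) and Ifitm3 at 0.09 (-0.14 to 0.31), so that changes of either gene beyond 0.31 lay outside the intervals. With length and GC trends removed these became -0.10 for Ifitm2 (adjusted p = 0.32), 0.47 for Ly6e (adjusted p = 0.0011) and 0.31 for Ifitm3 (adjusted p = 0.017).

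Between ProteinFx and EVFx of RNY1-/- fluid, 1 of 4 members was a DEG (Ly6a), against 9.02% of all genes. By adjusted p 2 of 4 passed (Ly6a and Ly6e), as did 29.2% of all genes. Ly6e was higher with ProteinFx at 0.94, under the fold limit (standard error 0.28, adjusted p = 0.024). It was called without RNY1-/- EVFx library 1 (1.02) or 2 (1.14) or RNY1-/- ProteinFx library 3 (1.08) or 4 (1.09), and had an adjusted p of 0.067 to 0.080 without any 1 of the others. Ifitm3 was at 0.50 (adjusted p = 0.053) and Ifitm2 at 0.38 (adjusted p = 0.11). The deviations of same-numbered libraries also correlated in this comparison (0.22 to 0.40), though no label says what the numbers share. With the replicate block Ifitm3 was at 0.50 (adjusted p = 0.0011) and Ifitm2 at 0.36 (adjusted p = 0.025). With libraries 3 and 4 alone, Ly6e was at 0.31 (adjusted p = 0.34).

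The interaction of donor genotype and kind of fraction, which is the genotype difference in ProteinFx minus that in EVFx, was fitted to 16 libraries. Ifitm2 gave 0.87 (standard error 0.20, adjusted p = 0.0061) and Ly6e 0.91 (standard error 0.33, adjusted p = 0.042), both under the fold limit. With all 20 libraries in the fit the adjusted p was 0.060 for Ifitm2 and 0.12 for Ly6e. Ly6a gave 0.95 (95% interval 0.11 to 1.79, adjusted p = 0.072) and Ifitm3 0.42 (-0.04 to 0.88, adjusted p = 0.14). By the DEG rule 0 of 4 members passed with edgeR and with DESeq2, against 7.76% of all genes. By adjusted p 2 of 4 passed (Ifitm2 and Ly6e), but so did 33% of all genes. Ly6a also had an unadjusted p under 0.05, for which the share of all genes was not counted. Leaving out 1 library took Ly6e from 0.73 to 1.10 and Ly6a from 0.75 to 1.15, and each was called in 4 of the 16 fits. Ly6e or Ly6a was called without RNY1+/+ EVFx library 3, RNY1-/- EVFx library 1 or 2, or RNY1-/- ProteinFx library 3 or 4. With length and GC trends removed Ifitm2 was at 0.49 (adjusted p = 0.037) and Ly6e at 0.44 (adjusted p = 0.20). With RNY1-/- ProteinFx libraries 3 and 4 alone they were at 0.53 (adjusted p = 0.074) and 0.30 (adjusted p = 0.53).

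The genes whose levels followed each member most closely over the 20 libraries were found by the root mean square (RMS) difference of centred log2 CPM, among 7553 genes with a mean of at least 10 CPM. Ifitm3 was closest to Lgals9, the gene of galectin-9 (RMS 0.099), and to Oas1a, an oligoadenylate synthetase that senses double-stranded RNA (0.15). Lgals9 was at 62.9 ± 28.4 CPM in PBS, 132 ± 23.4 in RNY1+/+ EVFx, 78.1 ± 20.6 in RNY1-/- EVFx, 141 ± 13.3 in RNY1+/+ ProteinFx and 132 ± 35.2 in RNY1-/- ProteinFx, the same order of means as for Ifitm3. Ly6e was closest to Lgals9 (0.22) and Oas2 (0.25). Ifitm2 was closest to Unc93b1, a chaperone of endosomal Toll-like receptors (0.14), and Rab5c, a GTPase of early endosomes (0.16), neither of which had a higher mean in ProteinFx than in PBS. Ly6a was closest to Slfn1, a Schlafen gene (0.55), and Gbp4, a guanylate-binding GTPase (0.63). These differences grow with the spread of the member, whose SD over the libraries was 1.69 for Ly6a, 0.76 for Ly6e, 0.63 for Ifitm3 and 0.41 for Ifitm2, so they are not compared between members. The means of Slfn1 and Gbp4 were higher in ProteinFx than in EVFx, but unlike those of Ly6a they were lower with RNY1-/- than with RNY1+/+ ProteinFx, at 57.6 against 69.8 and 52.2 against 60.9 CPM. The genes share libraries, depth and trends with GC content, so these are descriptions.

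Genes of the interferon pathway set the background against which the members moved. Of 53 listed genes, 39 were tested with RNY1+/+ EVFx against PBS and 32 were DEGs, all higher, with a median log2 fold change of 2.495 where that of all genes tested was -0.03. With RNY1-/- EVFx 27 of 39 were (median 2.57), with RNY1+/+ ProteinFx 31 of 40 (median 2.94) and with RNY1-/- ProteinFx 29 of 39 (median 2.46), again all higher. None of the 11 ligand genes passed the filter on low values. No receptor gene of the 5 tested was a DEG against PBS. Of 3 JAK kinases, Jak2 was called in all 4 comparisons, at 2.402, 2.38, 2.65 and 2.096. Among the transcription factors, Stat2, Irf1 and Irf7 were called in each, and Stat2 was at 2.23, 1.93, 2.36 and 2.03. The feedback inhibitors Usp18 and Socs3 were called in each, with Socs3 at 5.45, 4.36, 6.11 and 4.54. Of the 24 other interferon targets tested, 24, 20, 23 and 22 were called higher, and their medians were 3.45, 3.48, 3.74 and 3.17. The called changes of Ly6e and Ifitm3, at 1.16 to 1.57, were smaller than these medians, while those of Ly6a were below them with EVFx (2.85 and 2.78) and above them with ProteinFx (3.95 and 4.83).

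Between genotypes in ProteinFx, the median fold change of the pathway genes tested was negative. Ly6a was higher with RNY1-/- at 0.91 on the log2 scale, under the fold limit. That value of Ly6a depended on single libraries and on which pair of RNY1-/- libraries was used. The pathway genes are not described by pair of libraries here. Of 40 pathway genes tested, 8 were DEGs lower with RNY1-/- and 1 was higher, where 1.16% and 0.658% of all genes were, with a median of -0.40 against 0.02 over all genes. The 2 with the largest fold change were Cxcl10, a chemokine (-2.36, adjusted p = 0.00019), and Socs3 (-1.55, adjusted p = 0.0017). Cxcl9, a related chemokine, was the gene that was higher (1.34, adjusted p = 0.0029). In EVFx 2 of 40 were lower, Ifi35 (-1.18, adjusted p = 0.00075) and Socs3 (-1.07, adjusted p = 0.00020), where 1.96% of all genes were, with a median of -0.19. Between fractions, 4 pathway genes were higher and 2 lower with ProteinFx than with EVFx of RNY1+/+ fluid, where 6.64% and 6.78% of all genes were, and 0 higher and 2 lower of RNY1-/- fluid, where 4.97% and 4.06% were. Nothing about the pathway is read from these counts.

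The rest of the 2 families was little expressed. Of 37 other Ly6/uPAR genes, only Cd59a, which encodes an inhibitor of complement, and Plaur, the urokinase receptor, passed the filter. Cd59a was at -1.25 with RNY1+/+ EVFx against PBS (adjusted p = 5.3e-05) and between -0.90 and -0.34 with the other treatments. Plaur was at -1.01 with RNY1-/- ProteinFx (adjusted p = 0.0015) and between -0.96 and -0.38 with the others. Neither was called higher in any comparison with PBS, in contrast to Ly6a and Ly6e. None of 12 other dispanins, the superfamily of the IFITM proteins, passed the filter.

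Genes that build and attach GPI anchors, on which the Ly6 proteins depend, did not move together. Of 31 listed, 27 were tested against PBS, with 1 DEG higher and 1 lower with RNY1+/+ EVFx, 1 and 6 with RNY1-/- EVFx, 1 and 4 with RNY1+/+ ProteinFx and 1 and 3 with RNY1-/- ProteinFx. Of all genes, 8.18%, 13.5%, 12.3% and 7.96% were DEGs lower in these comparisons, and the shares that were higher are those given for the members. The higher one was Pgap2, which remodels the lipid of the anchor, at 1.96, 1.73, 2.00 and 1.43. Pgap6, a GPI-specific phospholipase, was at -1.89, -2.38, -0.80 and -0.47, and was called with both EVFx. Of 11 genes that modify or turn over IFITM proteins, such as palmitoyltransferases and the ubiquitin ligase Nedd4, 10 were tested and none was a DEG higher than PBS. Zdhhc7, a palmitoyltransferase, was lower with RNY1-/- EVFx (-1.48, adjusted p = 0.00038) and RNY1+/+ ProteinFx (-1.04, adjusted p = 0.0062), and Ap2m1, a subunit of the clathrin adaptor AP-2, with RNY1-/- EVFx (-1.21, adjusted p = 0.00014). Between ProteinFx and EVFx of RNY1-/- fluid, the kinase Fyn (1.14) and Ap2m1 (1.25) were called higher, where 4.97% of all genes were.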

How the data were processed

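The 9 members and all gene lists were chosen with earlier results of these data known. Polyadenylated RNA of 20 BMDM libraries was sequenced from the 3′ end with molecular identifiers. By the submitters' processing notes and the study's methods, the authors trimmed with fastp 0.24.0, aligned with STAR 2.7.11 to GRCm39, sorted with SAMtools 1.22.1, removed duplicates by molecular identifier and counted by strand with featureCounts of Subread 2.1.1, splitting multi-mapping reads between genes. The table that the authors deposited holds these expected counts, not normalized, and CPM on each library's total. Between 23.6% and 26.3% of the detected genes had a fractional count (off a whole number by over 0.001), and expected counts were rounded before testing.

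The filter was filterByExpr plus 3 CPM on average in the fitted libraries. After TMM scaling, edgeR 4.0.16 (glmQLFit, glmQLFTest) was run on the 8 libraries of the groups compared, or on 16 for the interaction. A standard error is the size of the log2 fold change divided by the root of F. Named genes are the members, the 2 nearest genes of each member tested, and the 2 tested genes of a list with the largest change. Other list genes that are named, such as those of the interferon pathway, were chosen after their values were seen. Centred log2 CPM used a prior count of 2. The ratio of Ifitm2 to Ifitm3 used exact permutation tests. Alternatives were DESeq2 1.42.0, total counts, other filters, all 20 libraries in 1 fit, the replicate number as a block, removal of length and GC trends (splines with 4 degrees of freedom, fitted library by library), no fold limit, another pseudocount and leaving out each library. The fits to RNY1-/- ProteinFx libraries in pairs, and the ratio without GC trends, were added after seeing the data. Numbers were taken to pair libraries where all same-numbered deviations correlated over 0.1, which held for RNY1-/- EVFx against PBS (0.13 to 0.38) and RNY1-/- ProteinFx against RNY1-/- EVFx (0.22 to 0.40) and for none of the other 6 comparisons of groups. Nothing in the labels says what the numbers share. Intervals cover 95%. Lengths, GC contents, shared 50-base stretches and positions came from GENCODE on GRCm38. The tests were tried on simulated data with 200 changed genes. R 4.3.3, limma 3.58.1, python 3.11.15, numpy 2.4.6, scipy 1.17.1, pandas 2.3.3 and matplotlib 3.10.9 were used. One marker of the monocyte list, with the summed level of that list, and one pathway gene are not reported here.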

Additional observations from a re-analysis of the deposited data

Results flagged for a closer look

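In 5 of 49 groups of 4 libraries, 1 library lay far from the other 3 by Dixon's test, which chance alone gives in about 1 of 20 groups. They were the highest Ly6c2 value in RNY1-/- EVFx (2.82 CPM), the lowest Ly6c2 value in RNY1+/+ ProteinFx (1.14 CPM), the highest Ly6i value in RNY1+/+ EVFx (1.13 CPM), the highest log2 ratio of Ifitm2 to Ifitm3 in PBS (-1.76) and the highest such ratio in RNY1-/- ProteinFx (-2.89). The Ly6c2 and Ly6i values rest on 4.5 to 21.5 counts.

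The effect of the donor genotype differed between ProteinFx and EVFx for Ly6e (0.91 on the log2 scale, adjusted p = 0.042 by edgeR's interaction term) and for Ifitm2 (0.87, adjusted p = 0.0061). By adjusted p 33% of all genes tested passed in this interaction. Ly6e was lower with RNY1-/- EVFx in the genotype comparison and had no passing difference with ProteinFx. Both interactions were smaller with GC and length trends removed, at 0.44 (adjusted p = 0.20) and 0.49 (adjusted p = 0.037), and neither passed with all 20 libraries in the fit (adjusted p = 0.12 and 0.060). Leaving out 1 library at a time moved the adjusted p between 0.011 and 0.11 for Ly6e and between 0.00082 and 0.018 for Ifitm2.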

How the results depend on the processing

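Depth limits Ly6c1, Ly6c2, Ly6i, Ifitm1 and Ifitm6, and 4 libraries a group limit the rest. Of the values for single members under the alternatives, 549 kept their direction and side of the threshold, 5 lost the call, 29 gained one and 21 changed sign, and the causes were not tested.

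The number of members called was 7, 3, 5 and 6 with no filter for RNY1+/+ EVFx, RNY1-/- EVFx, RNY1+/+ ProteinFx and RNY1-/- ProteinFx against PBS, with all 9 tested, Ly6i included although it had no count in PBS, and 3 for RNY1-/- ProteinFx against RNY1-/- EVFx and 3 for the interaction. With total counts, under which the median log2 fold change of all genes ran from -0.27 (RNY1-/- EVFx against PBS) to 0.19 (ProteinFx against EVFx of RNY1-/-), it was 1 for the genotypes in ProteinFx, 2 for ProteinFx against EVFx of RNY1-/- and 3 for the interaction, and with filterByExpr alone 1 for the interaction. With length and GC trends removed it was 3 for RNY1-/- EVFx against PBS. Without a fold limit it was 3 and 1 for the genotypes in EVFx and ProteinFx, 2 and 2 for ProteinFx against EVFx of RNY1+/+ and RNY1-/-, and 2 for the interaction. RNY1-/- ProteinFx libraries 3 and 4 alone gave 1 against PBS, and libraries 1 and 2 alone gave 1 between genotypes, 2 against EVFx and 3 for the interaction. Leaving out 1 library gave 2 to 3, 1 to 1, 3 to 3 and 2 to 3 against PBS in the order above, 0 to 0 and 0 to 1 between genotypes, 0 to 1 and 1 to 2 between fractions and 0 to 2 for the interaction. Against PBS, the adjusted p values of Ly6a, Ly6e and Ifitm3 were far smaller with no filter at similar fold changes. The no-filter counts are therefore not read as added calls.

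Signs changed in values under the fold limit, some of which passed by adjusted p. Ifitm2 against PBS became 0.19 (RNY1-/- EVFx), 0.43 (RNY1+/+ ProteinFx) and 0.55 (RNY1-/- ProteinFx) without length and GC trends, and with RNY1-/- ProteinFx 0.0057 in DESeq2, 0.017 with no filter, 0.019 with the replicate block and 0.27 with libraries 1 and 2 alone. Leaving out 1 library gave -0.40 to 0.0018 and -0.24 to 0.17 for Ifitm2 with RNY1+/+ and RNY1-/- ProteinFx, -0.23 to 0.14 for Ly6a between genotypes in EVFx, and -0.085 to 0.095 for Ly6e and -0.020 to 0.14 for Ifitm3 between fractions of RNY1+/+, where Ly6e was -0.012 with no filter. Between genotypes in ProteinFx, Ifitm3 was 0.093 with libraries 1 and 2 alone, and Ly6e was -0.30 and Ifitm2 -0.16 with libraries 3 and 4 alone.

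The log2 ratio of Ifitm2 to Ifitm3 without length and GC trends was -1.33 with RNY1+/+ ProteinFx and -1.002 with RNY1-/- ProteinFx against PBS, and 0.016 between genotypes in EVFx. Leaving out 1 library moved it from -0.93 to -0.86, -1.08 to -0.95, -1.50 to -1.43 and -1.24 to -1.13 against PBS, from -0.18 to -0.05 between genotypes in EVFx and from 0.24 to 0.32 in ProteinFx. A pseudocount of 2 CPM changed no call.

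With the replicate number as a block, the number of members called was 3, 1, 3 and 3 against PBS, 0 and 0 between genotypes, 1 and 1 between fractions and 0 for the interaction, as without it. In the interaction Ly6a was at 0.94 (adjusted p = 0.011) under the block, where the samples share only a number. Over all genes, DEGs with no filter numbered 3052, 3845 and 3569 against 1774, 2417 and 2310 for RNY1+/+ EVFx, RNY1-/- EVFx and RNY1+/+ ProteinFx against PBS, and 631, 334, 2557, 1534 and 1429 against 241, 191, 1402, 941 and 811 for the genotypes in EVFx and in ProteinFx, the fractions of RNY1+/+ and of RNY1-/-, and the interaction. With no filter 29682 genes were tested for RNY1+/+ EVFx against PBS, where 10802 were tested with it. Without length and GC trends there were 92 DEGs for the genotypes in EVFx and 417 for the interaction. Libraries 1 and 2 alone gave 921 against PBS (1552 in all 4), 406 between genotypes and 1901 for the interaction, and libraries 3 and 4 alone gave 99 for the interaction. Leaving out 1 library moved such a count by over 1.5 times for the genotypes in EVFx (99 without RNY1+/+ EVFx library 4), the genotypes in ProteinFx (115 without RNY1+/+ ProteinFx library 4) and the interaction (482 without RNY1-/- ProteinFx library 2 and 537 without library 1).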
